A study of Mus musculus with 6 samples.

Results

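The genes described here encode neurotrophins, glial cell line-derived neurotrophic factor (GDNF) and their receptors: Bdnf, Ntf3, Ntrk2, Ntrk3, Ngfr, Gdnf, Gfra1, Gfra2 and Ret. They were chosen by name, and every probe set whose platform symbol was one of the 9 genes was taken. This gave 32 probe sets for 8 genes, out of 45037 probe sets and 18193 gene symbols on the array, and no probe set was assigned to Ntf3 in the annotation used here. RNA came from the first lumbar segment (L1) of the spinal cord of male severe combined immunodeficiency (SCID) mice aged 15 weeks, 6 weeks after injection. In N-inv mice, cells of the human pancreatic cancer line Capan-1 had been injected within the sciatic nerve on the left side. The controls were a subcutaneous model (SC) and a model with phosphate-buffered saline (PBS), and each group had 2 arrays. SCID mice lack functional T and B lymphocytes, so every group, controls included, shares that background. The sources used do not state that the 2 arrays of each group are separate mice, so p-values measure only the spread between these samples, which may be technical.

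Neurotrophins are secreted proteins that keep neurons alive and adjust synapses. Brain-derived neurotrophic factor, from Bdnf, binds the kinase TrkB (Ntrk2), neurotrophin-3, from Ntf3, binds TrkC (Ntrk3), and both bind the p75 receptor (Ngfr). GDNF binds the membrane-anchored coreceptor GFRA1 and the complex acts through the kinase RET, while GFRA2 prefers the related ligand neurturin. In the spinal cord, Bdnf is a mediator in pain circuits, and Gfra1 and Ret are expressed in motor neurons.

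The windows around gene starts, from 250 bases before the start to 50 after it, were read from RefSeq sequences of build GRCm38.p6, which held 14 windows for 6 of the 9 genes. Those shown are a Bdnf start and the Gfra1 start, since their genes held 3 of the 4 probe sets with an unadjusted p under 0.05 in N-inv against PBS (the other was of Ret, for which the table held no window). Of the Bdnf windows, the one printed was picked because it held a match. Both strands were searched for the cAMP response element core TGACG, which binds CREB, a textbook regulator of Bdnf, and for the AP-1 site TGANTCA. Matches are in capitals, and on the printed strand a core on the opposite strand reads CGTCA.
Bdnf, chr2:109692186-109692485, plus strand: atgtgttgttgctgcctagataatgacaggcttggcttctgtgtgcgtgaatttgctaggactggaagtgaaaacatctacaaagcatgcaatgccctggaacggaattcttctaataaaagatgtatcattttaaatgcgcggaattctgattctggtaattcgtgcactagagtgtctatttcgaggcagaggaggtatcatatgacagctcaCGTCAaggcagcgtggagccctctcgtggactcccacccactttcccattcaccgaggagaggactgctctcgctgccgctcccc
Gfra1, chr19:58455349-58455648, minus strand: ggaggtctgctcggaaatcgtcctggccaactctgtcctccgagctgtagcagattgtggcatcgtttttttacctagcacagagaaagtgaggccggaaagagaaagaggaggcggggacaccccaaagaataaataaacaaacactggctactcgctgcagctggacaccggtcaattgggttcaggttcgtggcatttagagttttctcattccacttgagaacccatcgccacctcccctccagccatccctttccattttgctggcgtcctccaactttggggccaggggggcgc
Of the 7 Bdnf windows, 1 held the core, 35 bases before the start, and 1 other held an AP-1 site. A Gdnf window, not shown, held the core 50 bases before its start. Over the 14 windows, 14.3% held the core and 7.14% the AP-1 site. The Gfra1 window held neither motif. Of 32851 windows of 300 bases, 20.8% held the core and 7.81% the AP-1 site. A match is a run of letters and no evidence of binding.

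All values below are scaled intensities, that is, deposited linear intensities after each array was set to a common median of 255.8. A probe set was tested when its mean over the 6 arrays exceeded 155.2, the 40th percentile. Of the 32 probe sets 22 were tested, for 7 genes, and in all 22 the mean of every group lay above that level. The PBS means of 1450440_at of Gfra1, at 155.9, and of the tested probe set of Ngfr, at 160.6, were only just above it. PBS replicate 1 was below it in both, at 146 and 61.7. The SC arrays stood apart. Their correlation of log2 values with each other was 0.953, the lowest of all pairs, and Xist, an RNA of the inactive X chromosome in female cells, measured 13042 in SC replicate 2 against 138 to 228 in the other arrays. The Y-linked gene Eif2s3y measured 1342 in SC replicate 1 and 2365 to 3147 in the others, SC replicate 2 included. High Xist goes against the male label of SC replicate 2, so what RNA that array holds is uncertain. Signs of the brightest probe sets that change without it are given below. Member counts at an unadjusted p are not given for fits that leave a lone array in a compared group. Those of the SC comparisons without SC replicate 2 are among these. Actb control probe sets at the 3' and 5' ends, whose ratio rises as RNA is shortened, gave ratios of 3.81 and 4.70 in SC and 3.05 to 3.57 in the other 4 arrays. The same ratio for Gapdh was 2.82 and 3.02 on the PBS arrays, 3.12 and 3.38 on the N-inv arrays and 3.52 and 3.38 on the SC arrays, and hardly set SC apart from N-inv. All 5 neuron marker genes were above the level for testing. Of the 6 dorsal root ganglion marker genes 5 had a probe set, and Prph, an intermediate filament gene also expressed in motor neurons, was the 1 above that level. In bulk tissue, fewer cells of a type and less RNA per cell cannot be told apart.

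Among the ligands, the probe sets of Bdnf differed in direction. The brightest, 1422169_a_at, measured 527 and 458 on the PBS arrays, 455 and 329 on the N-inv arrays and 483 and 498 on the SC arrays. Both N-inv arrays lay below the other 4, although N-inv replicate 1 was close to PBS replicate 2. The log2 difference between N-inv and PBS was -0.32 ± 0.20 (SE; limma adjusted p of 1.0). The other, 1422168_a_at, measured 320 and 316 on the PBS arrays, 383 and 653 on the N-inv arrays and 447 and 491 on the SC arrays. Here all 4 N-inv and SC arrays lay above both PBS arrays, and the N-inv arrays were further from each other than those of either other group. Its log2 difference was 0.62 ± 0.25 (SE) between N-inv and PBS, with an unadjusted p of 0.0468. Between SC and PBS it was 0.53 ± 0.25 (SE). Neither difference passed adjustment in limma, at 1.0 and 0.685. The ratio of the 2 Bdnf probe sets within an array, 1422168_a_at over 1422169_a_at, was 0.606 and 0.689 on the PBS arrays, 0.841 and 1.98 on the N-inv arrays and 0.925 and 0.987 on the SC arrays. The N-inv ratios differed widely between replicates, and a single direction for Bdnf cannot be read from these arrays. The pair was set side by side after its values were seen and was not tested.

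Gdnf, the ligand of GFRA1 and RET, was dim on every array. Its only probe set measured 13.5 and 10.2 on the PBS arrays, 2.96 and 3.38 on the N-inv arrays and 10.6 and 7.20 on the SC arrays. These intensities were all below the level for testing, and values this low give no usable fold. Among ligands outside this set, Nrtn, which encodes neurturin, measured 496 and 436 on the PBS arrays, 694 and 443 on the N-inv arrays and 468 and 633 on the SC arrays, with overlapping groups. Artn, Pspn and Ntf5, which encode artemin, persephin and neurotrophin-4/5, were below the level for testing.

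**Figure D1:**
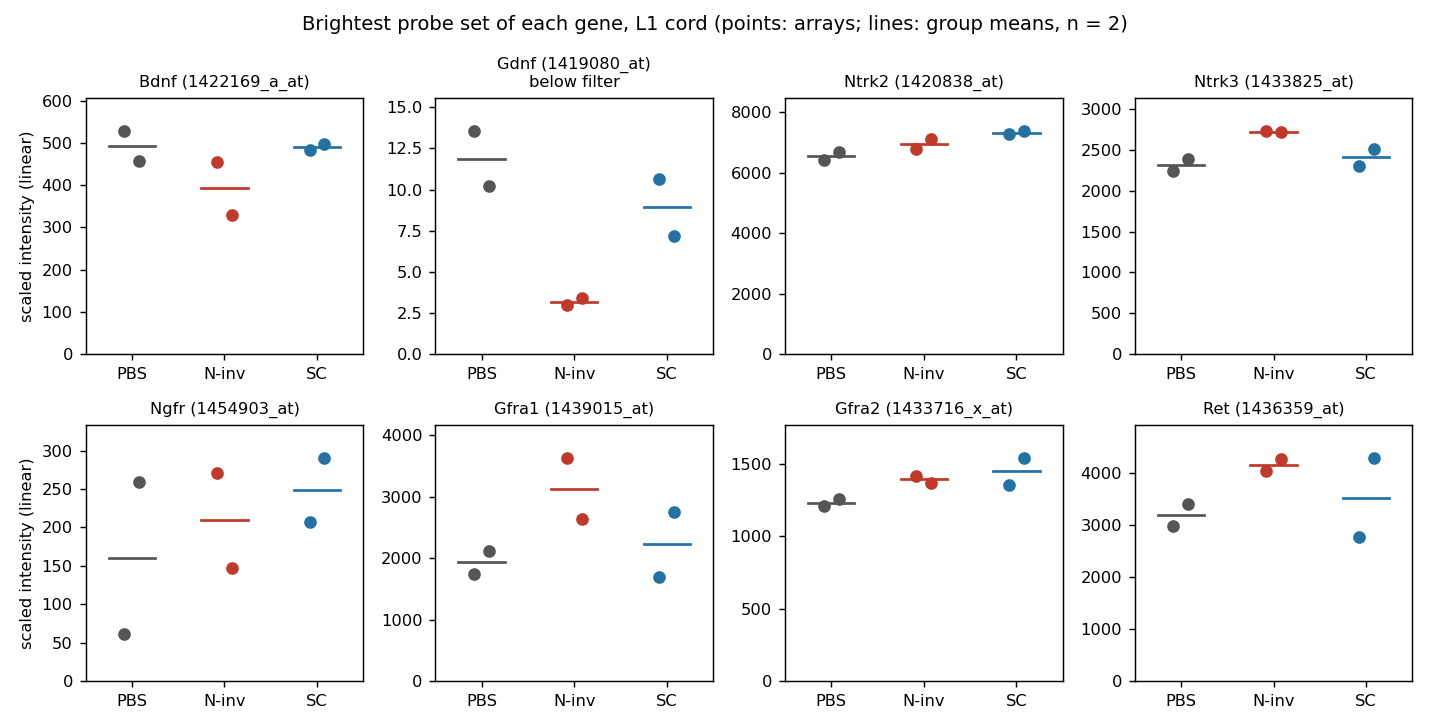
Scaled intensity (vertical axes, linear, from 0) of the brightest probe set of 8 genes in PBS, N-inv and SC cord, where points are arrays and lines are means of 2 arrays. Both N-inv arrays lie above both PBS arrays for Ntrk2, Ntrk3, Gfra1, Gfra2 and Ret, and below them for Bdnf and for Gdnf, which is below the level for testing.

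Ntrk2, which encodes TrkB, had 8 probe sets, and 7 were tested. The brightest, 1420838_at, measured 6430 and 6678 on the PBS arrays, 6796 and 7130 on the N-inv arrays and 7275 and 7374 on the SC arrays. The groups did not overlap and lay in that order, but the log2 differences of N-inv and of SC from PBS were 0.09 ± 0.15 and 0.16 ± 0.15 (SE), and the first was smaller than its error. In N-inv against PBS the 7 log2 differences ran from -0.33 to 0.13, and their smallest unadjusted p was 0.198. Between SC and PBS the probe sets of Ntrk2 went opposite ways. Probe set 1435196_at measured 4638 and 5170 on the PBS arrays, 5159 and 5572 on the N-inv arrays and 6034 and 8240 on the SC arrays, with both SC arrays above the other 4. Probe set 1437560_at measured 2824 and 3269 on the PBS arrays, 2931 and 2791 on the N-inv arrays and 2343 and 2142 on the SC arrays, with both SC arrays below the other 4. Their log2 differences between SC and PBS were 0.52 ± 0.20 and -0.44 ± 0.16 (SE), with unadjusted p of 0.0361 and 0.0343 and adjusted p of 0.616 and 0.611 in limma. The ratio of the first to the second was 1.64 and 1.58 on the PBS arrays, 1.76 and 2.00 on the N-inv arrays and 2.58 and 3.85 on the SC arrays, a pair also chosen after its values were seen. TrkB is made in full-length and kinase-lacking forms, but the annotation used here does not say which form a probe set reads. The array with the largest ratio, SC replicate 2, also had the highest Actb 3' to 5' ratio, 4.70, but not the highest for Gapdh, and the part of RNA quality in this ratio was not tested.

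Ntrk3, which encodes TrkC, had 8 probe sets, and 5 were tested. The brightest, 1433825_at, measured 2240 and 2393 on the PBS arrays, 2730 and 2719 on the N-inv arrays and 2309 and 2514 on the SC arrays. Both N-inv arrays were above the other 4, and the log2 difference from PBS was 0.23 ± 0.15 (SE; limma adjusted p of 1.0). The second, 1447723_at, measured 1011 and 1224 on the PBS arrays, 1385 and 1455 on the N-inv arrays and 1190 and 1173 on the SC arrays, with the N-inv arrays again above the rest. Its log2 difference from PBS was 0.34 ± 0.17 (SE), with an unadjusted limma p of 0.0797, and it did not pass adjustment. Of the 5 tested probe sets 4 were higher in both N-inv arrays than in both PBS arrays, against 21.7% of all tested probe sets. The groups overlapped for 1455917_at, with means of 1135 in N-inv and 1173 in PBS. The 3 dim probe sets, below the level for testing, had lower means in N-inv than in PBS, among them 1425070_at, at 134.7 and 74.7 in PBS against 48.6 and 15.7 in N-inv.

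Ngfr encodes p75, the receptor shared by the neurotrophins, which motor neurons and Schwann cells make again after nerve injury. Its brightest probe set measured 61.7 and 259 on the PBS arrays, 271 and 148 on the N-inv arrays and 207 and 290 on the SC arrays. The difference between the PBS arrays exceeded that between any group means, and all groups overlapped. The log2 difference between N-inv and PBS was 0.52 ± 0.55 (SE), and without PBS replicate 1 it was -0.33, so these arrays give no direction. The other 2 probe sets stayed between 3.99 and 42.2 and were not tested. Sort1, which encodes sortilin, a partner of p75 for pro-neurotrophins, measured 5558 and 6073 on the PBS arrays, 5495 and 5802 on the N-inv arrays and 4428 and 3776 on the SC arrays.

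Gfra1 encodes the GDNF coreceptor, and both of its tested probe sets were higher in N-inv than in PBS. The brightest, 1439015_at, measured 1738 and 2123 on the PBS arrays, 3626 and 2633 on the N-inv arrays and 1693 and 2752 on the SC arrays. Both N-inv arrays lay above both PBS arrays, while SC replicate 2 lay between the N-inv arrays and SC replicate 1 at the level of PBS. The means were 1930 ± 272 for PBS, 3130 ± 702 for N-inv and 2223 ± 749 for SC (SD, n = 2). The log2 difference between N-inv and PBS was 0.68 ± 0.28 (SE), with an unadjusted p of 0.0499 and an adjusted p of 1.0 in limma. That error is shared by the 3 groups, SC included. With only the N-inv and PBS arrays fitted the SE was 0.21, with an unadjusted p of 0.0232 and an adjusted p of 0.681 in limma. The second, 1450440_at, measured 146 and 165 on the PBS arrays, 234 and 322 on the N-inv arrays and 337 and 262 on the SC arrays. Here N-inv and SC both lay above PBS, by 0.73 ± 0.21 in N-inv and 0.83 ± 0.21 in SC (log2, SE). The unadjusted p were 0.0124 and 0.00669, and the adjusted p 1.0 and 0.518 in limma. The probe set too dim for testing, 1421973_at, measured 164.5 and 122 on the PBS arrays, 179 and 216 on the N-inv arrays and 90.8 and 144 on the SC arrays. All 3 probe sets were higher in both N-inv arrays than in both PBS arrays, as were 21.7% of all tested probe sets. They differed in whether SC was raised. Without SC replicate 2 the log2 difference of the brightest between SC and PBS was -0.18, against 0.17 with it.

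Beside Gfra1, the summed intensity of 8 microglia marker genes was 30994 and 26195 in N-inv, 19238 and 19931 in PBS and 17423 and 20297 in SC. That of 6 astrocyte marker genes was 127554 and 125797 in N-inv, 97984 and 109055 in PBS and 83471 and 118446 in SC. That of 5 motor neuron marker genes was 2856 and 2420 in N-inv, 2788 and 2191 in PBS and 1934 and 2642 in SC. Of the motor neuron markers 4 of 5 were above the level for testing, and Slc5a7, a choline transporter gene, was below it. Within the astrocyte sum, Gfap alone measured 6653 and 7913 on the PBS arrays, 20479 and 19174 on the N-inv arrays and 4632 and 15348 on the SC arrays. Of the 6 astrocyte genes 5 were higher in N-inv than in PBS and 1, Slc1a3, was lower. All 8 microglia genes were higher, and their sum came mostly from Csf1r. The sum of the 5 measured dorsal root ganglion markers was 6778 and 5424 in N-inv, 4778 and 4040 in PBS and 3383 and 5449 in SC, mostly from Prph. Prph alone measured 4552 and 3694 on the PBS arrays, 6642 and 5166 on the N-inv arrays and 3162 and 5215 on the SC arrays, with the SC arrays split as for Gfra1. The part of these cells in the values of Gfra1, and of Ret below, was not tested.

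Ret encodes the signalling kinase of GDNF. Its 2 probe sets were also higher in both N-inv arrays than in both PBS arrays, as were 21.7% of all tested probe sets. The brightest, 1436359_at, measured 2982 and 3397 on the PBS arrays, 4036 and 4256 on the N-inv arrays and 2755 and 4277 on the SC arrays. As for Gfra1, the SC arrays were split, with replicate 2 at the level of N-inv and replicate 1 below PBS. Its log2 difference between N-inv and PBS was 0.38 ± 0.23 (SE; limma adjusted p of 1.0). That error is shared by the 3 groups, so the split SC arrays enter it. With only the N-inv and PBS arrays fitted the SE was 0.13, with an unadjusted p of 0.0371 and an adjusted p of 0.696 in limma. For Ngfr the SE in that fit was larger, 0.61 against 0.55. The second, 1421359_at, measured 474 and 365 on the PBS arrays, 711 and 595 on the N-inv arrays and 579 and 422 on the SC arrays. Both N-inv arrays were above the other 4, and the log2 difference from PBS was 0.61 ± 0.22 (SE), with an unadjusted p of 0.0308 and an adjusted p of 1.0 in limma. From SC it was 0.38 ± 0.22 (SE).

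Gfra2 encodes the coreceptor that prefers neurturin, and its 5 probe sets disagreed. The brightest, 1433716_x_at, measured 1208 and 1258 on the PBS arrays, 1417 and 1370 on the N-inv arrays and 1357 and 1539 on the SC arrays, above PBS in all 4 other arrays. By the naming of this array type, the ending _x_at marks probes that may also bind other transcripts, so its intensity may not be of Gfra2 alone. Probe set 1425579_at measured 148 and 237 on the PBS arrays, 169 and 210 on the N-inv arrays and 267 and 343 on the SC arrays, higher in SC than in all other arrays. Its log2 difference was 0.62 ± 0.25 (SE) for SC against PBS and -0.62 ± 0.25 (SE) for N-inv against SC, with unadjusted p of 0.0448 and 0.0460. These 2 comparisons share the SC arrays. The last of the tested probe sets, 1459847_x_at, measured 337 and 364 on the PBS arrays, 322 and 299 on the N-inv arrays and 498 and 286 on the SC arrays, and the SC arrays enclosed all the others.

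Both dim probe sets of Gfra2 were lowest in SC. Probe set 1423007_a_at measured 70.8 and 90.1 on the PBS arrays, 136 and 171 on the N-inv arrays and 6.78 and 8.47 on the SC arrays. The 3 groups did not overlap, and the N-inv arrays were highest. Probe set 1425578_a_at measured 115.1 and 81.0 on the PBS arrays, 41.6 and 115.2 on the N-inv arrays and 14.6 and 21.3 on the SC arrays. Both were below the level for testing, and the SC intensities of the first are too low for a usable fold or p. The brightest probe set was not lower in SC, so a lower level of the gene as a whole cannot be read from the dim ones. The part of RNA quality in these values was not tested.

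**Figure D2:**
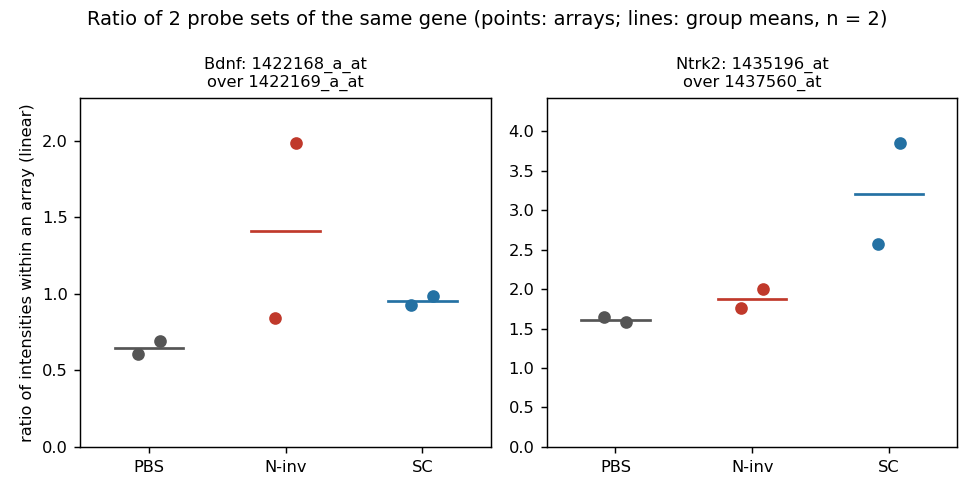
Ratio of the intensities of 2 probe sets of the same gene within each array (vertical axes, linear, from 0), where points are arrays and lines are means of 2 arrays. The Bdnf ratio is above PBS in all 4 other arrays, with N-inv replicate 2 far above the rest, and SC holds the highest Ntrk2 ratios.

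Across the probe sets tested, N-inv was first compared with PBS, the vehicle control. Of the 22 probe sets 16 were higher and 6 lower. The 4 with an unadjusted p under 0.05 were all higher, 2 of Gfra1, 1 of Ret and 1 of Bdnf, against 2.27% of all 27022 tested probe sets called higher in this way. In 11 probe sets both N-inv arrays were above both PBS arrays, against 21.7% of all, and in 2 both were below, against 14.6%. Over the brightest probe set of 7 genes the median log2 difference was 0.23, and the median of all probe sets tested was 0.02. No probe set of the 22 and 0% of all passed an adjusted p of 0.05 in limma. Probe sets of one gene are not independent. Of these 4 probe sets 1 still had an unadjusted limma p under 0.05 with no filter, and 2 did with quantile normalization or with values as deposited. With only the N-inv and PBS arrays fitted the counts were 4 and 0, against 4.04% and 2.93% of all. Those 4 were both tested probe sets of Gfra1 and both of Ret, and the Bdnf probe set dropped out. For the brightest probe set of Gfra1 the log2 difference was 0.54 and 0.82 without PBS replicates 1 and 2. It was 0.45 and 0.91 without N-inv replicates 1 and 2. That of Ngfr was -0.33 and 1.38 without PBS replicates 1 and 2.

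**Figure D3:**
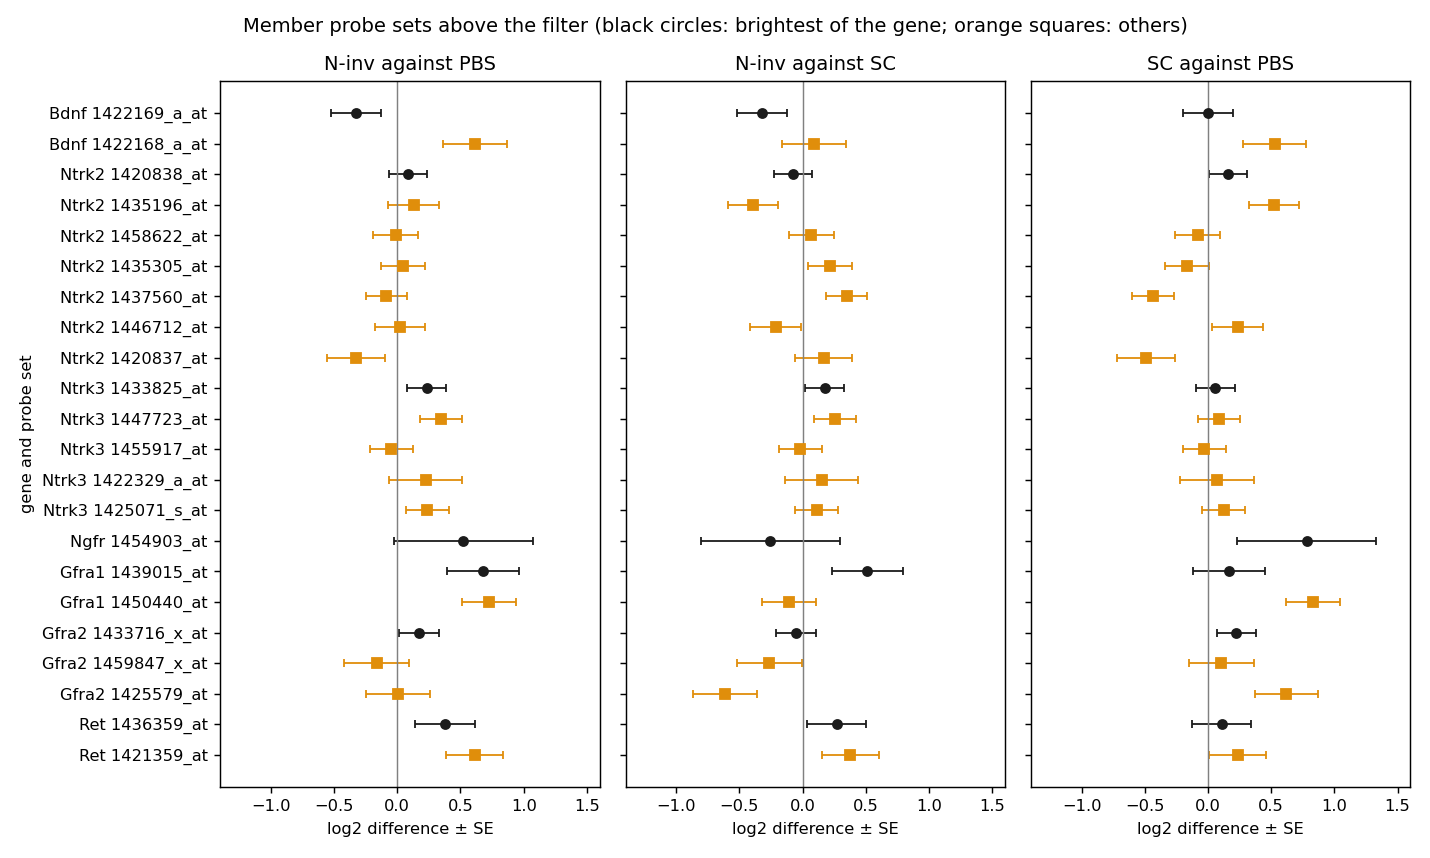
Log2 difference ± SE (horizontal axes) of the 22 tested probe sets in 3 comparisons, with black circles for the brightest probe set of a gene and orange squares for others. In N-inv against PBS the probe sets of Gfra1 and Ret lie to the right of 0, and in SC against PBS those of Ntrk2 lie on both sides.

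N-inv was next compared with the subcutaneous model. Here 12 of the 22 probe sets were higher and 10 lower, 0 had an unadjusted p under 0.05 on the higher side, against 5.95% of all, and 1, 1425579_at of Gfra2, on the lower side, against 2.95%. Both N-inv arrays were above both SC arrays in 5 probe sets, against 23.7% of all, and below them in 5, against 13.3%. The median over 7 genes was -0.05 and over all probe sets 0.05. The 2 probe sets of Gfra1 had opposite signs, 0.51 ± 0.28 and -0.10 ± 0.21 (log2, SE). The log2 difference of the brightest probe set of Gfra1 was 0.17 without SC replicate 1 and 0.86 without SC replicate 2. That of Ret was -0.045 and 0.58. With only the N-inv and SC arrays fitted the counts were 0 and 1, against 4.46% and 2.36% of all. With no filter they were 0 and 0, against 3.81% and 3.73%.

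The third comparison was of both control models, SC against PBS. Of the 22 probe sets 16 were higher and 6 lower, with 3 and 1 at an unadjusted p under 0.05, against 2.72% and 5.16% of all. The 3 were 1435196_at of Ntrk2, 1450440_at of Gfra1 and 1425579_at of Gfra2, and the 1 was 1437560_at of Ntrk2. Both SC arrays were above both PBS arrays in 7 probe sets, against 14.2% of all, and below them in 2, against 20.2%. The median over 7 genes was 0.16, and over all probe sets -0.02. In limma 0% of all probe sets passed adjustment in this comparison and in the one before it. Without SC replicate 1 the log2 difference of the brightest probe set of Gfra1 was 0.51, and without SC replicate 2 it was -0.18. With only the SC and PBS arrays fitted the counts were 2 and 0, against 2.13% and 3.75% of all. With no filter they were 1 and 0, against 3.25% and 3.51%. This comparison shares arrays with each of the others.

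The other genes of these pathways came from lists of 91 genes, of which 71 were tested, and 0 passed adjustment in limma in each comparison. In N-inv against PBS 47 were higher and 24 lower, and 3 higher and 0 lower had an unadjusted p under 0.05, where 2.27% and 1.76% of all tested probe sets did. The genes named here and below are a description. Sdc3, which encodes syndecan-3, a proteoglycan that binds GDNF, measured 4649 and 4727 on the PBS arrays, 7159 and 6146 on the N-inv arrays and 4432 and 4752 on the SC arrays. Both N-inv arrays were above the other 4, with log2 differences of 0.50 ± 0.16 from PBS and 0.53 ± 0.16 from SC (SE). Vgf, a secreted neuronal protein whose gene responds to BDNF, measured 2744 and 2875 on the PBS arrays, 6319 and 6383 on the N-inv arrays and 3541 and 6468 on the SC arrays. All 4 N-inv and SC arrays were above both PBS arrays. The transcription factor gene Junb measured 416 and 387 on the PBS arrays, 531 and 525 on the N-inv arrays and 412 and 435 on the SC arrays.

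The lists of other receptors and of ERK feedback and response genes held these 3 genes. Of 12 other receptors and coreceptors 10 were higher and 2 lower in N-inv than in PBS, with a median of 0.17. Of 25 Trk and Ret adaptors and kinases 19 were higher and 6 lower, with a median of 0.07, and 0 had an unadjusted p under 0.05. Of 14 ERK feedback and response genes 8 were higher and 6 lower, with a median of 0.04. The 8 adaptors of p75 had a median of -0.01, the 6 genes of ligand processing 0.02 and the 5 regulators of Bdnf transcription -0.02, with no unadjusted p under 0.05.

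**Figure D4:**
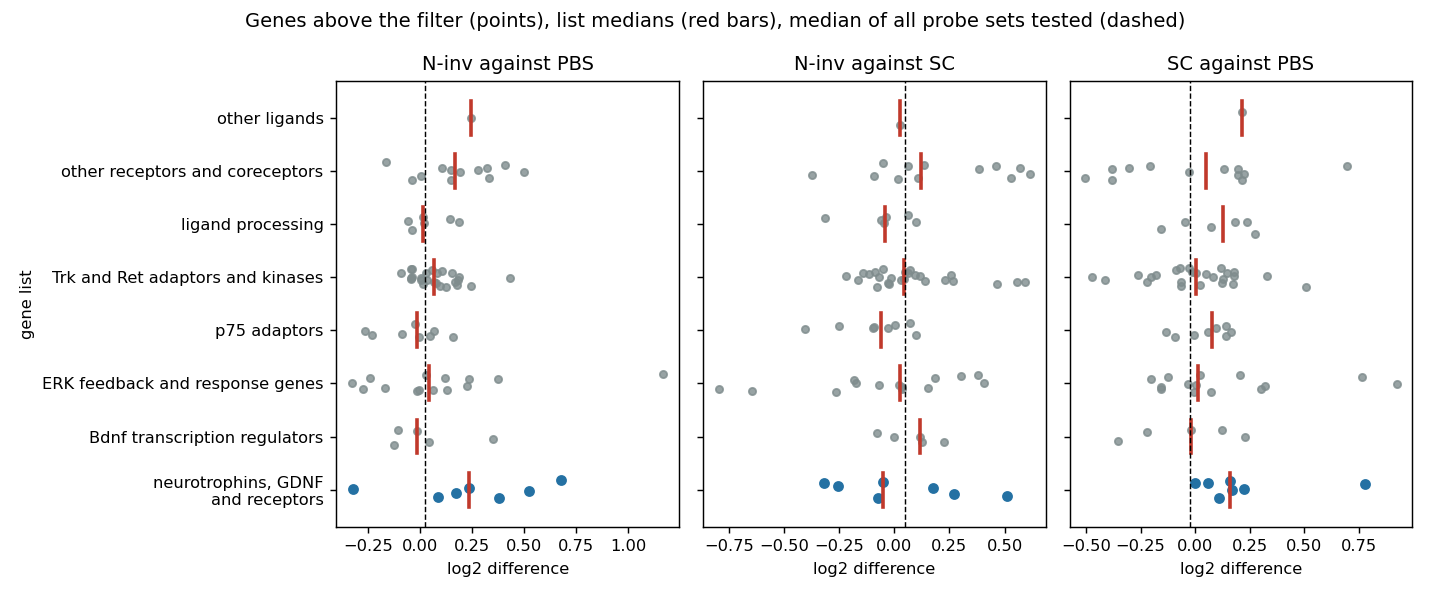
Log2 difference (horizontal axes) of the tested genes of 7 pathway lists and of the neurotrophin, GDNF and receptor genes (blue) in 3 comparisons. Red bars are medians, and the dashed line is the median of all probe sets tested; the point farthest right in N-inv against PBS is Vgf, at 1.17.

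In N-inv against SC 5 of the 71 genes had an unadjusted p under 0.05 on the higher side and 1 on the lower, where 5.95% and 2.95% of all tested probe sets did, so the counts were near the background. The higher ones were Sort1, Sdc3, the p75-related receptor gene Tnfrsf19, the docking protein gene Gab1 and the kinase gene Map2k2. Gab1 measured 5928 and 6701 on the N-inv arrays against 4644 and 3948 on the SC arrays, and Tnfrsf19 measured 2272 and 2536 against 1842 and 1402. PBS lay with N-inv for Gab1, at 5387 and 6575. The lower one was Spry4, a feedback inhibitor of kinase signalling, at 243 and 362 in N-inv, 484 and 591 in SC and 305 and 238 in PBS. In SC against PBS 3 of the 71 genes had such a p on the higher side, Spry4, Vgf and Nradd, and 2 on the lower, Sort1 and Gab1, where 2.72% and 5.16% of all tested probe sets did. Nradd, which encodes a relative of p75, measured 342 and 347 in SC and 197 and 209 in PBS.

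The genes with the profile most like a member over the 6 arrays were found by the root mean square difference of centred log2 values, for the 3 members with the largest SD. For Ret they were Syt4, Klc1 and Igfbp7, at 0.039, 0.051 and 0.053 on the log2 scale, among 12625 genes compared. Syt4, which encodes a synaptotagmin, measured 3978 and 4414 on the PBS arrays, 5448 and 6020 on the N-inv arrays and 3829 and 5808 on the SC arrays, the same split between the SC arrays as Ret. For Gfra1 they were Casp12, Fcer1g and Dimt1, at 0.079, 0.085 and 0.12. Fcer1g, which encodes an Fc receptor chain of myeloid cells, measured 220 and 252 on the PBS arrays, 393 and 298 on the N-inv arrays and 196 and 321 on the SC arrays. For Ngfr they were Fbxw19, Cd164l2 and Myoz1, at 0.18, 0.22 and 0.23; all 3 were lowest in PBS replicate 1, as Ngfr was. These profiles are a description of 6 arrays.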

How the data were processed

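Cord RNA was measured on Affymetrix arrays, 2 for each of 3 groups. Per the labels' protocols, TRIzol was used for extraction and a two-cycle kit made cRNA from 100 ng of total RNA. The deposited values are linear intensities, 1 for each probe set. Their 2% trimmed mean was 1000 on every array, so the authors' values had been scaled. How probes were summarised was not stated in the labels or files used.

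Of 45101 probe sets 64 controls were left out. The platform annotation gave 1 symbol for 34945, several for 932 and none for 9160. Arrays were scaled to the common median, and log2(intensity + 25.6) was taken, so changes of dim genes are understated. A probe set was kept where its mean over 6 arrays exceeded the 40th percentile, which left 27022. The package limma 3.58.1 (R 4.3.3; lmFit, eBayes) fitted 1 model with a mean for each group, on 3 residual and 3.59 prior degrees of freedom. Tests were two-sided, with Benjamini-Hochberg adjustment across the 27022 and a threshold of 0.05. For 2 arrays against 2, exact permutation gives no p below 0.333, so none was run. The number of arrays limits the precision. The alternatives were other scalings, pseudocounts, filters, variance models, samples and a block.

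All members were named with every probe set. From each pathway list, at most 4 genes a comparison with an unadjusted p under 0.05 were named, smallest p first, by their brightest probe set; the dim ligands and Nrtn were named beside the members as the other ligands, after their values were seen. The members and lists were chosen with earlier results of these data known. In simulated arrays made from N-inv and PBS with 27022 probe sets, the test found 0 of 200 changes of size 1 (log2), 198 of 200 of size 2 and 199 of 200 of size 3. In the same order it also called 0, 10 and 14 unchanged probe sets.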

Additional observations from a re-analysis of the deposited data

How the results depend on the processing

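Over 333 recomputed log2 differences of 7 genes in 3 comparisons, 312 kept their sign and none reached an adjusted p of 0.05. Many of these could not turn. Other filters, the intensity trend, the block and fits of only the groups compared leave a log2 difference as it was. So does leaving out an array of the third group. Of the 21 values 15 turned sign in at least 1 alternative. Gfra1 and Ret were higher in N-inv than in PBS in every alternative run, from 0.45 to 0.91 and from 0.28 to 0.50. The mean of all probe sets of a gene, dim ones included, turned the sign of Bdnf (0.15) and Ntrk3 (-0.16) in N-inv against PBS. It turned Gfra2 (0.53), Ntrk2 (0.0291) and Ntrk3 (-0.078) between N-inv and SC, and Bdnf (0.26), Gfra2 (-0.44), Ntrk2 (-0.0173) and Ntrk3 (-0.0811) between SC and PBS. Bdnf in SC against PBS was 0.0301 with quantile normalization and 0.0142 as deposited. Leaving out each array in turn gave both signs for Ngfr in N-inv against PBS, from -0.33 to 1.38, without PBS replicate 1 at the low end. Between N-inv and SC it did so for Gfra2, from -0.14 to 0.0379, Ngfr, from -0.64 to 0.13, and Ret, from -0.045 to 0.58. Between SC and PBS it did so for Bdnf, from -0.0998 to 0.0939, Gfra1, from -0.18 to 0.51, Ngfr, from -0.0749 to 1.63, Ntrk3, from -0.00358 to 0.12, and Ret, from -0.21 to 0.42. The cause was not tested. A lone array left in a group is assumed to vary like the other groups. Over all probe sets, 1089, 2406 and 2129 had an unadjusted p under 0.05 in the 3 comparisons in that order and 0 passed adjustment in limma. With an intensity trend 1 and 2 passed in the first and second, and with only the groups compared 1 passed in the first. Leaving out 1 array gave 0 to 1 (1 without either SC array), 0 to 2 (2 without SC replicate 1) and 0 to 10 (10 without SC replicate 1), and 0 members passed in any alternative. Deviations of same-numbered arrays correlated at 0.01, 0.04 and -0.03, so no shift shared by replicate number was seen. These values cannot tell whether arrays were handled in pairs. With the replicate block 0 probe sets passed in each comparison. At an unadjusted p under 0.05, 3, 0 and 3 member probe sets were higher and 0, 1 and 2 lower. Of all probe sets tested, 2.41%, 5.95% and 2.8% were higher and 1.86%, 3.05% and 4.97% lower in this way. The files used give no detection call, so whether dim probe sets, such as that of Gdnf, measured any RNA is unknown.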
